A study of Mus musculus with 3 samples.

Results

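A set of 10 genes known from the output and periglomerular neurons of the olfactory bulb were followed through ribosome-bound RNA of the prefrontal cortex. They were among the 32531 gene symbols in each count table. Of these, 8 (Cdhr1, Eomes, Tbx21, Doc2g, Ms4a15, Shisa3, Spp1 and Barhl2) were taken as mitral and tufted cell genes, and 2, Th and Slc6a3, as genes of dopaminergic periglomerular cells. They were chosen by name, partly because Cdhr1 and others were already known to differ between these libraries. Their spread between libraries is therefore given as a description, with no test.

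The series holds 1 group of 3 libraries, each a pool of 3 adult mice of the Slc17a6-TRAP line JX883, without treatment. In translating ribosome affinity purification (TRAP), polysomes carrying an EGFP-tagged ribosomal protein L10a are pulled down with antibodies against EGFP, and the bound RNA is sequenced. The tag is driven by Slc17a6, the gene of the vesicular glutamate transporter VGLUT2, so cells in which that driver is active are the intended source. Strain background, sex and exact age were not given in the sources used here, and neither input RNA nor tissue of untagged mice was analysed here. A lower level in this RNA can reflect fewer tagged cells of a type or less message per cell, which cannot be told apart.

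Mitral and tufted cells are the glutamatergic projection neurons of the olfactory bulb. They receive input from olfactory sensory neurons in the glomeruli and send axons to the olfactory cortex. Periglomerular cells are local interneurons around the glomeruli, and one class of them makes dopamine. The bulb lies in front of the frontal cortex, with the anterior olfactory nucleus between them.

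The libraries held 12592174, 8964137 and 12648577 counts of named genes. A count of 0 allows up to 3 counts, or 0.238, 0.335 and 0.237 counts scaled to a common library total (CPM) in replicates 1, 2 and 3. Because reads were not tied to molecules by identifiers, such limits, like all intervals given, cover counting error only. The labelled tissue was checked on 8 markers of cortical excitatory neurons, and 8 of 8 reached 1 CPM in every library. They included the kinase gene Camk2a at 2884 ± 265 CPM (SD, n = 3) and Slc17a7, the gene of the vesicular glutamate transporter VGLUT1, at 307 ± 17.3 CPM. Their summed level was 3659, 3912 and 4048 CPM in replicates 1, 2 and 3.

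Of the 8 mitral and tufted genes, 7 were highest in replicate 1 and lowest in replicate 3, and their levels in replicate 3 were at least 2-fold below those in replicate 1. The remaining one, Barhl2, was not lower in replicate 3. Th had the same order of libraries with smaller differences, and Slc6a3 was near the detection limit. Of all genes tested, 16.8% were highest in replicate 1 and lowest in replicate 3, beside 8 of the 10 chosen genes. In all, 9 of the 10 chosen genes had at least 10 counts in at least 1 library, the minimum used for the test across all genes. The 7 genes stand against 9.04% of the 14774 genes tested that were lowest in replicate 3 and at least 2-fold below their highest library. Among genes averaging at least 5 CPM that share was 3.17%, beside 5 of the 7 chosen genes at that level. Since the genes were chosen on this difference, nothing is read from these counts.

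**Figure D1:**
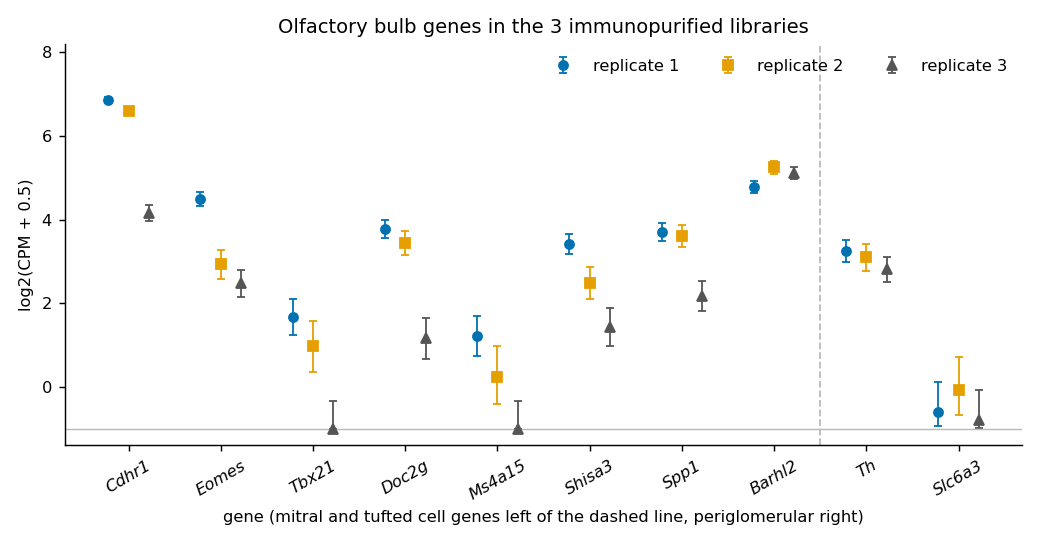
Level of each gene in each library, as log2(CPM + 0.5), with exact 95% Poisson intervals of the counts (counting error only). The grey line at -1 marks a count of 0, and replicate 3 lies below both other libraries for 7 of the 8 mitral and tufted genes and above replicate 1 for Barhl2.

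Cdhr1 encodes a cadherin-related protein, also called protocadherin 21, that is used as a marker of mitral and tufted cells. The gene (ENSMUSG00000021803.10) lies on mm10 chromosome 14, 37077857 to 37098347, on the minus strand, and none of its exonic bases is shared with another annotated gene. It had 1466, 860 and 219 counts, or 116 CPM (95% Poisson interval 111 to 123) in replicate 1, 95.9 CPM (89.6 to 103) in replicate 2 and 17.3 CPM (15.1 to 19.8) in replicate 3. Replicates 1 and 2 were close to each other and replicate 3 stood well below both. Replicate 1 exceeded replicate 3 by 6.72-fold (95% interval 5.83 to 7.79), and replicate 2 exceeded it by 5.54-fold (4.77 to 6.46). Replicate 1 exceeded replicate 2 by only 1.21-fold (1.11 to 1.32), which is the ratio that remains without replicate 3.

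Against the driver message, Cdhr1 had 13.6 counts per 100 Slc17a6 counts in replicate 1, 13.3 in replicate 2 and 1.90 in replicate 3. Replicate 3 thus stood far below the other libraries on the scale of the driver message as well as on that of the library total. Slc17a6 itself stood at 857, 723 and 913 CPM and was highest in replicate 3.

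The sequences just before the start sites are shown for 5 genes. These are 3 of the 7 genes that were low in replicate 3 (Cdhr1, Eomes, Tbx21), Barhl2, which was not, and the periglomerular gene Th. The sequences are those of a reference genome and not of the libraries, so the difference between libraries cannot be read from them. They come from RefSeq on GRCm38.p6, which has the coordinates of mm10, and all 10 genes were found there. Each is written 5′ to 3′ on the strand of its gene and ends at or shortly before the RefSeq start, leaving out annotated exon bases. The stretches are chr14:37098348-37098597 (minus strand), chr9:118477939-118478188 (plus), chr11:97115332-97115581 (minus), chr5:106458167-106458416 (minus) and chr7:142900015-142900245 (minus). Capitals mark the homeodomain core TAATTG, the T-box core GGTGTG and the cAMP response element TGACGTCA, each on either strand.
Cdhr1: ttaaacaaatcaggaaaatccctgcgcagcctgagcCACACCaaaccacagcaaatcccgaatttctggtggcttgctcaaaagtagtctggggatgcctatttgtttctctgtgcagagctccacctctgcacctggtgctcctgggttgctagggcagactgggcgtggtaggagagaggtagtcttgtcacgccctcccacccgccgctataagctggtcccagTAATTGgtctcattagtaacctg
Eomes: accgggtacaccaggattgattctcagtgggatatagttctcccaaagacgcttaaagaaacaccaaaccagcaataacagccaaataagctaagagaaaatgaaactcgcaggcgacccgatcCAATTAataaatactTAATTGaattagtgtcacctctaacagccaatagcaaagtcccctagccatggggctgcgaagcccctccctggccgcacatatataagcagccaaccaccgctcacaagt
Tbx21: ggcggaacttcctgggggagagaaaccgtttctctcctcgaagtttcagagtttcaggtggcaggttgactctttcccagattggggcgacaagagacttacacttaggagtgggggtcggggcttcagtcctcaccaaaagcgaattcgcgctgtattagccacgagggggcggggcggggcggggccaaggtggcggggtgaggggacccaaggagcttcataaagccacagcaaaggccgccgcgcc
Barhl2: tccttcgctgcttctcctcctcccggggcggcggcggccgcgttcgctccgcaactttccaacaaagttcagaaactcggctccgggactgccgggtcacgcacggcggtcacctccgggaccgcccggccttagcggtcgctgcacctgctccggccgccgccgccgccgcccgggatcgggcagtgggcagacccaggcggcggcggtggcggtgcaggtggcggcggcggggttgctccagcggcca
Th: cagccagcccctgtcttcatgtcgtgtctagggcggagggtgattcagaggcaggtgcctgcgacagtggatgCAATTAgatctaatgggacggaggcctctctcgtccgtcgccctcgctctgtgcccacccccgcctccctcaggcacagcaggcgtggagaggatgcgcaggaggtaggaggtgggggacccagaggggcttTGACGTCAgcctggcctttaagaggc

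In 250 bases before the start, TAATTG was present in 3 of the 10 genes (Cdhr1, Eomes and Th), against 7.17% of 32817 RefSeq windows of the same length. In Cdhr1 it lay 23 to 18 bases before the start, and Eomes held it at 126 to 121 and at 111 to 106 bases before the start, once on each strand. The T-box core GGTGTG was in the windows of Cdhr1 and Doc2g, against 16.3% of all windows. The longer T-box motif AGGTGTGA, which contains that core, was in 0 of 10, against 1.12% of all windows. The nuclear receptor site AAAGGTCA was in 0 of 10 (1.34% of all windows), the TATA box letters TATAAA in Spp1 alone (12.4%) and the E box CANNTG in 8 of 10 (66.2%), on either strand. In Spp1 the letters TATAAA lay 211 to 206 bases before the start, not close to it. Th held TGACGTCA 45 to 38 bases before its start, a sequence in 1.55% of all windows. Base composition differed widely among the genes: the windows of Spp1 and Eomes were 43.6% and 46.4% G and C, that of Barhl2 74.8%, and the median of all windows was 52.4%. Doc2g had 0 CpG dinucleotides in its window and Barhl2 36, around a median of 6. Annotated exon bases were kept in these windows, and all 250 bases of the Doc2g window were of that kind. A match is a description of the letters and not of binding.

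Eomes and Tbx21 encode T-box transcription factors that mark mitral and tufted cells in the adult bulb. Eomes (ENSMUSG00000032446.14, chromosome 9, 118478212 to 118486132, plus strand) had 278, 64 and 64 counts, or 22.1 CPM (19.6 to 24.8), 7.14 CPM (5.50 to 9.12) and 5.06 CPM (3.90 to 6.46) in replicates 1, 2 and 3. Here replicate 1 stood apart, and the intervals of replicates 2 and 3 overlapped. The ratio of replicate 1 to replicate 2 was 3.09 (2.35 to 4.12), and that of replicate 2 to replicate 3 was 1.41 (0.982 to 2.03). Without replicate 1, the 4.36-fold difference between the highest and lowest library thus came down to 1.41-fold.

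Tbx21 (ENSMUSG00000001444.2, chromosome 11, 97098071 to 97115331, minus strand) had 34, 13 and 0 counts. These were 2.70 CPM (1.87 to 3.77) in replicate 1 and 1.45 CPM (0.772 to 2.48) in replicate 2, and the 0 of replicate 3 allows up to 0.237 CPM. With 3 counts taken for replicate 3, replicate 1 was 11.4-fold higher than replicate 3 and replicate 2 was 6.11-fold higher. The exact 95% lower limits of the ratios to the count of 0 were 8.77 and 4.30. Replicates 1 and 2 did not differ beyond counting error, with a ratio of 1.86 (0.958 to 3.84).

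Doc2g belongs to the double C2 domain family. The gene (ENSMUSG00000024871.11, chromosome 19, 4003313 to 4007005, plus strand) had 167, 93 and 22 counts, or 13.3 CPM (11.3 to 15.4), 10.4 CPM (8.37 to 12.7) and 1.74 CPM (1.09 to 2.63). Replicates 1 and 2 did not differ beyond counting error, with a ratio of 1.28 (0.986 to 1.67), and replicate 3 was 7.62-fold below replicate 1 (4.87 to 12.5). Of its exonic bases, 63.5% are shared with the annotated gene Gm49405 on the same strand, so reads may have been lost or shared between them in counting.

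Ms4a15, a member of the MS4A family of membrane proteins (ENSMUSG00000067571.4, chromosome 19, 10978307 to 10993250, minus strand) had 23, 6 and 0 counts, or 1.83 CPM (1.16 to 2.74), 0.669 CPM (0.246 to 1.46) and 0. With 3 counts taken for replicate 3, replicate 1 was 7.70-fold higher. The exact 95% lower limit of the ratio to the count of 0 was 5.77. Its ratio of replicate 1 to replicate 2 was 2.73, with an interval from 1.08 to 8.19.

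Shisa3, which encodes a transmembrane protein of the Shisa family (ENSMUSG00000050010.8, chromosome 5, 67607882 to 67623552, plus strand), had 129, 46 and 28 counts. These were 10.2 CPM (8.55 to 12.2), 5.13 CPM (3.76 to 6.84) and 2.21 CPM (1.47 to 3.20). The intervals of the 3 libraries did not overlap, and the ratio of replicate 1 to replicate 3 was 4.63 (3.06 to 7.24). It was 2.32 (1.42 to 3.85) for replicate 2 against replicate 3.

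Spp1 encodes osteopontin, a secreted phosphoprotein that is found in mitral cells and also made by activated microglia. The gene (ENSMUSG00000029304.14, chromosome 5, 104435118 to 104441050, plus strand) had 158, 105 and 51 counts, or 12.5 CPM (10.7 to 14.7), 11.7 CPM (9.58 to 14.2) and 4.03 CPM (3.00 to 5.30). Replicates 1 and 2 differed by 1.07-fold (0.832 to 1.38), and replicate 1 exceeded replicate 3 by 3.11-fold (2.26 to 4.36). Of its exonic bases, 18.8% are shared with the annotated gene Gm42793 on the same strand. Of the 8 microglia markers, 6 reached 1 CPM in every library, and the complement gene C1qa had 0 counts in all 3. Their summed level was 40.3, 39.6 and 43.0 CPM in replicates 1, 2 and 3, and so was not lower in replicate 3. They included the receptor gene Csf1r at 13.0 ± 3.92 CPM (SD, n = 3) and Ctss at 7.51 ± 2.25 CPM.

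Barhl2, a homeodomain transcription factor gene (ENSMUSG00000034384.11, chromosome 5, 106452523 to 106458166, minus strand), went the other way. It had 340, 338 and 431 counts, or 27.0 CPM (24.2 to 30.03), 37.7 CPM (33.8 to 41.9) and 34.1 CPM (30.9 to 37.4). Replicate 1 was lowest, and replicates 2 and 3 overlapped. Its highest and lowest libraries differed by 1.40-fold (1.20 to 1.63), the smallest such ratio among the 8 mitral and tufted genes. Barhl2 thus did not share the library pattern of the genes it was grouped with.

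Among the periglomerular genes, Th encodes tyrosine hydroxylase, the rate-limiting enzyme of dopamine synthesis. Th (ENSMUSG00000000214.11, chromosome 7, 142892752 to 142931128, minus strand) had 114, 72 and 83 counts, or 9.05 CPM (7.47 to 10.9), 8.03 CPM (6.28 to 10.1) and 6.56 CPM (5.23 to 8.13). The intervals of all 3 libraries overlapped, and the ratio of replicate 1 to replicate 3 was 1.38 (1.03 to 1.85). Slc6a3, the plasma membrane dopamine transporter gene (ENSMUSG00000021609.6, chromosome 13, 73536747 to 73578672, plus strand), had 2, 4 and 1 counts and did not reach the minimum for the test.

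The ratios between the genes within a library do not depend on the library total, and they restate the levels above relative to Cdhr1. Cdhr1 was chosen partly for its difference between libraries. A gene that fell less than Cdhr1 in replicate 3 therefore has to stand higher relative to it there. Doc2g had 11.4 counts per 100 Cdhr1 counts in replicate 1 (95% exact interval 9.65 to 13.4), 10.8 in replicate 2 (8.64 to 13.4) and 10.05 in replicate 3 (6.17 to 15.6). These 3 values lay within counting error of each other although the level of Cdhr1 differed by 6.72-fold. Eomes did not keep such a ratio, at 19.0 (16.6 to 21.6), 7.44 (5.68 to 9.60) and 29.2 (21.8 to 38.8) per 100 Cdhr1 counts. It was lowest relative to Cdhr1 in replicate 2. Shisa3 had 8.80, 5.35 and 12.8 per 100, with its lowest value also in replicate 2. Spp1 had 10.8, 12.2 and 23.3 per 100, with replicate 3 above the intervals of the other 2. Th had 7.78, 8.37 and 37.9 per 100 and Barhl2 23.2, 39.3 and 197 per 100, and both were highest relative to Cdhr1 in replicate 3.

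**Figure D2:**
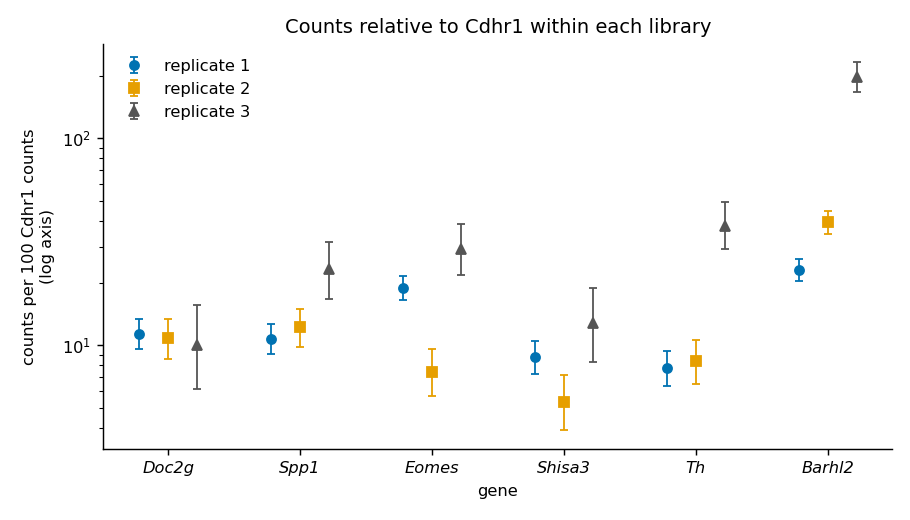
Counts of 6 genes per 100 counts of Cdhr1 in each library on a log axis, with exact 95% intervals (counting error only). Doc2g stays between 10.05 and 11.4 in all 3 libraries, whereas Eomes is lowest in replicate 2 and Barhl2 reaches 197 in replicate 3.

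Summed over the 8 mitral and tufted genes, the level was 206 CPM in replicate 1, 170 in replicate 2 and 64.4 in replicate 3. The highest and lowest libraries differed by 3.20-fold (2.96 to 3.46), and by 1.21-fold without replicate 3. Cdhr1 gave 51.6% of these counts. Without it, the other 7 genes, of which Barhl2 gave 34.1 CPM in replicate 3, summed to 89.7, 74.2 and 47.1 CPM, a ratio of 1.90 (1.72 to 2.10). With Cdhr1 but without Barhl2, the sum was 179, 132 and 30.4 CPM, a ratio of 5.90 (5.29 to 6.59). Th and Slc6a3 together stood at 9.21, 8.48 and 6.64 CPM.

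Levels of the chosen genes were compared with each other in TPM, a scale that divides counts by exon length before scaling them to a common total. Cdhr1 was highest at 88.4 ± 60.3 TPM (SD, n = 3) and Barhl2 followed at 71.3 ± 11.98. Spp1 stood at 28.6 ± 14.2, Th at 16.7 ± 2.61, Doc2g at 13.9 ± 9.86, Eomes at 13.7 ± 11.1 and Shisa3 at 6.17 ± 4.26. The lowest were Tbx21 at 2.78 ± 2.71, Ms4a15 at 2.34 ± 2.59 and Slc6a3 at 0.331 ± 0.281. In the order of mean TPM, 3 of 9 neighbouring pairs kept their order in 3 of 3 libraries: Barhl2 above Spp1, by 1.45 ± 0.99 in log2(TPM + 0.5), Eomes above Shisa3, by 1.04 ± 0.36, and Shisa3 above Tbx21, by 1.41 ± 0.95. For each of these the exact two-sided sign-flip permutation p was 0.25 (adjusted p = 0.75 over 9 pairs), and 0.25 is the smallest that 3 libraries allow. The other 6 pairs did not keep their order. Cdhr1 stood above Barhl2 in replicates 1 and 2, at 134 against 58.2 and 111 against 81.8 TPM, and below it in replicate 3, at 20.0 against 73.8 TPM.

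**Figure D3:**
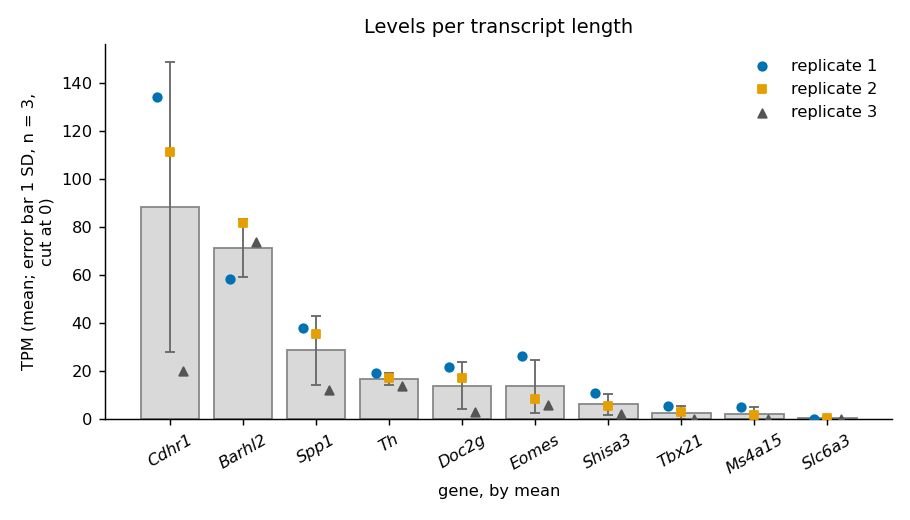
Mean level of each gene in TPM (bars, 1 SD over the 3 libraries, cut at 0) with the value of each library as points. Cdhr1 spans 20.0 to 134 TPM, while Barhl2 lies between 58.2 and 81.8 TPM and Th between 13.9 and 19.1 TPM.

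Other genes of bulb neurons, taken from lists of mitral and tufted, periglomerular and granule cell genes and of dopamine handling, were then examined. A test across all genes asked which varied between libraries beyond genes of like abundance, and 36 of 14774 genes, or 0.244%, were called at an adjusted p of 0.05 in edgeR. Of 47 genes on these lists 46 were tested, and 1, Ebf3, was called. At an unadjusted p of 0.05, 4 of the 46 varied, beside 7.22% of all genes tested, a share near that of the lists. Of the 46, 3 (Ebf3, Dlx1 and Dlx5) were lowest in replicate 3 and at least 2-fold below their highest library, against 9.04% of all genes tested. Ebf3, a transcription factor gene of the EBF family, had 138, 64.7 and 31.2 CPM in replicates 1, 2 and 3 (edgeR, adjusted p = 3.6e-09). Over the other settings its adjusted p lay between 8.4e-10 and 0.0431, except that without replicate 1 it was 0.425. Ebf3 was on the lists of mitral and tufted and of Cajal-Retzius cell genes.

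Among the other 16 mitral and tufted cell genes, all of which reached 1 CPM in every library, those with the most counts, a measure that does not allow for length, were Slc17a6 at 831 ± 97.4 CPM (SD, n = 3), the peptide gene Cck at 428 ± 53.4 CPM and Slc17a7. Their sum stayed between 2416 and 2527 CPM, and 8 of the 16 were lowest in replicate 3, against 34.3% of all genes tested. Several of them, such as Slc17a7, Cck and Tbr1, are also genes of cortical neurons. The 15 other periglomerular genes included Gad2, a GABA-synthesizing enzyme gene, at 626 ± 45.2 CPM, the homeodomain factor gene Meis2 at 124 ± 7.46 CPM and Etv1 at 113 ± 13.6 CPM. Their sum lay between 1210 and 1290 CPM. In this list 0 of 15 were called in edgeR, 3 had an unadjusted p under 0.05 (Dlx1, Dlx5 and Trh), beside the 7.22% of all genes, and 8 were lowest in replicate 3. Dlx1 and Dlx5, homeodomain factor genes of forebrain interneurons, had 7.54, 2.45 and 1.03 CPM and 11.8, 18.6 and 4.03 CPM in replicates 1, 2 and 3. The peptide gene Trh went the other way, at 15.5, 30.6 and 40.0 CPM.

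Genes of dopamine synthesis and handling summed to 221, 213 and 208 CPM in replicates 1, 2 and 3. Ddc, the enzyme that follows tyrosine hydroxylase, stood at 9.45, 8.37 and 5.06 CPM, and the vesicular monoamine transporter gene Slc18a2 at 5.47 ± 1.12 CPM. Gch1, which makes the cofactor of tyrosine hydroxylase, had 0.476, 0.335 and 2.61 CPM. The nuclear receptor gene Nr4a2 was at 107, 80.7 and 78.3 CPM, so that it and Ddc were highest in replicate 1 and lowest in replicate 3. Of the others, the degrading enzyme genes Maoa and Maob were at 30.4 ± 2.97 and 11.8 ± 1.49 CPM. Of the 7 genes on this list 0 were called in edgeR, and 0 had an unadjusted p under 0.05. Of the 10 midbrain dopamine neuron markers, 7 (Pitx3, En1, En2, Foxa1, Foxa2, Lmx1a and Lmx1b) had 0 counts in all libraries. The summed level of this list was 30.4, 29.2 and 50.1 CPM in replicates 1, 2 and 3. Its other members were Aldh1a1 at 15.4, 16.4 and 33.7 CPM, the receptor gene Ret at 14.5 ± 1.61 CPM and Chrna6 at 0.264 ± 0.229 CPM. Among noradrenaline neuron markers Dbh had 5, 10 and 3 counts, Pnmt 0, 2 and 0, and Slc6a2 1 count in replicate 3 only, while Phox2a had 0 in all libraries, for sums of 0.397, 1.34 and 0.395 CPM.

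Markers of other cells of the bulb were set beside the chosen genes. Granule cell markers summed to 277, 312 and 282 CPM in replicates 1, 2 and 3, and included Gng4 at 124 ± 4.10 CPM, Pbx3 at 70.1 ± 13.4 CPM and Synpr at 31.0 ± 5.43 CPM. Of the 9, 8 were tested and 1 was lowest in replicate 3. Olfactory ensheathing glia markers summed to 54.6, 71.2 and 56.1 CPM, and 2 of the 6 tested were lowest in replicate 3. They included Matn2 at 18.5 ± 2.19 CPM, Sox10 at 16.3 ± 1.26 CPM and Fabp7 at 11.6, 12.3 and 4.19 CPM. Fabp7 was lowest in replicate 3 and at least 2-fold below its highest library, beside 9.04% of all genes tested. Its unadjusted p was under 0.05 in edgeR, but it was not called (adjusted p = 0.635). Of olfactory sensory neuron markers, Cnga2 and Stoml3, a channel subunit gene and a stomatin-family gene, had 0 counts in all libraries. That list also held the G protein gene Gnal, which striatal and cortical neurons also express, at 700 ± 74.8 CPM, Adcy3 at 15.2 ± 1.60 CPM and Gng8 at 8.17 ± 0.25 CPM. Their summed level was 654, 801 and 731 CPM. Omp, the olfactory marker protein gene, had 0.953, 0.335 and 5.38 CPM and was highest in replicate 3.

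Cajal-Retzius cells, reelin-secreting neurons of the cortical surface, share several of these transcription factors. Their list summed to 460, 328 and 245 CPM in replicates 1, 2 and 3. Of its 7 genes, 6 were lowest in replicate 3, beside 34.3% of all genes tested. Ebf3 alone was lowest there and at least 2-fold below its highest library, beside 9.04% of all genes tested. Of the 8 cortical excitatory markers, 6 were also lowest there, although their sum was not. The Cajal-Retzius list included Reln at 101 ± 19.2 CPM, Ebf3 at 77.8 ± 54.4 CPM and Calb2 at 64.7 ± 13.6 CPM, and 0 of its markers were at 0. The p53-family gene Trp73 had 87.8, 54.8 and 44.2 CPM. All 7 reached 1 CPM in every library, and 4 of them were also on the list of other mitral and tufted cell genes. This list was thus lowest in the same library as Cdhr1, Eomes and the 5 other genes, and its part in their difference was not tested.

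**Figure D4:**
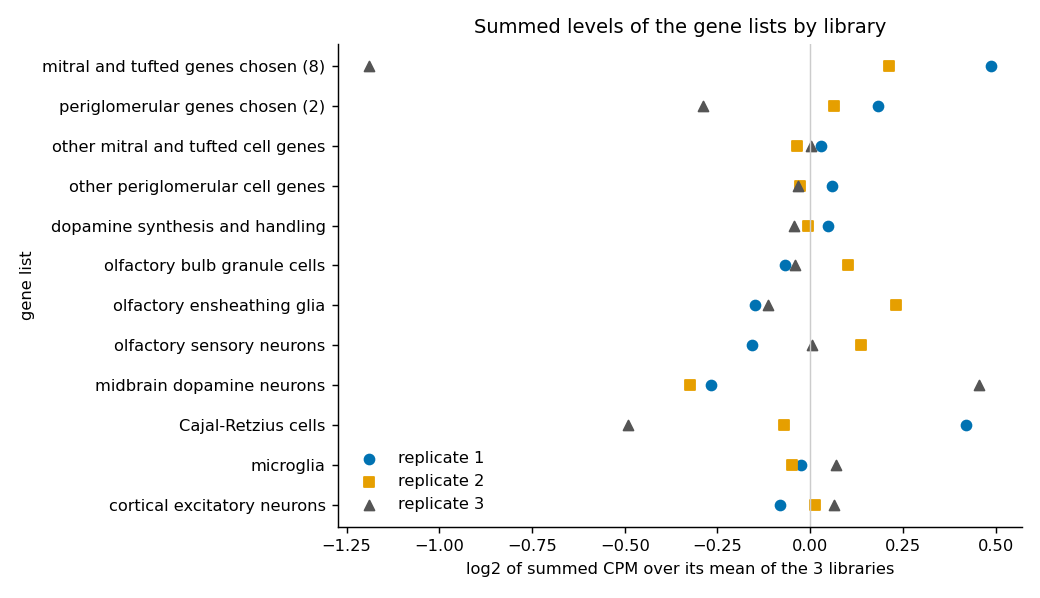
Summed CPM of each gene list but that of noradrenaline neurons in each library, as the log2 ratio to the list's mean over the 3 libraries. The 8 mitral and tufted genes chosen (206, 170 and 64.4 CPM) and the Cajal-Retzius list (460, 328 and 245 CPM) are lowest in replicate 3. So are, by smaller margins, the 2 periglomerular genes chosen, the other periglomerular genes and the dopamine handling list, whereas the other 7 lists are not.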

How the data were processed

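RNA of immunopurified ribosomes was sequenced in 3 libraries of 1 group. For each library the authors deposited 1 file of raw read counts by gene symbol. The submitters' processing notes name STAR 2.0.0e, HTSeq and mm10, a mouse genome build. Which settings, annotation and strand mode were used is not given in the sources used here. Reads of overlapping or antisense genes may not have been told apart. Lines that name no gene held 27.2% to 28.3% of counts and were left out of totals and tests. The labels do not say that the pools came from separate preparations, so p-values measure the spread between these samples. By chi-square no pair of libraries agreed within sampling noise (12.5 to 17.4 per degree of freedom).

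CPM were computed over named genes. TPM used merged exons of GENCODE M21 (mm10), matched by symbol for 87.1% of symbols with a count; the annotation used for counting may differ. Poisson, binomial and ratio intervals are exact, at 95%.

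Genes varying between libraries were called in edgeR 4.0.16 by the deviance of a negative binomial fit with 1 common mean (goodness of fit, TMM, trended dispersion, 2 degrees of freedom, Benjamini-Hochberg at 0.05, at least 10 counts in at least 1 library). In simulations of 200 genes lowered 4-fold or 16-fold in 1 library, this fit recovered 62% of 200 and 89.5% of 200 genes, with 8 and 9 false calls among 14179 and 14159 genes. The 200 genes were drawn only from genes with a higher mean count than the test required, so these shares do not cover genes with few counts. Alternatives were limma 3.58.1, DESeq2 1.42.0 size factors, a common dispersion, no count filter, totals without Rn45s, other transcript lengths, a pseudocount of 0.1 in place of 0.5, and each replicate left out.

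The genes and lists were chosen with earlier results of these data known. Named were the 10 chosen genes, the 3 highest genes by CPM and every called gene of each other list, all genes of dopamine handling, and the 5 genes of at least 5 CPM whose centred log2(CPM + 0.5) values lay nearest to those of the 2 chosen genes of highest mean CPM. A few of the genes so selected are not reported here. Dlx1, Dlx5, Trh, Trp73 and Omp were named after their values were seen. Other software was Python 3.11.15 with scipy 1.17.1, pandas 2.3.3 and numpy 2.4.6, and R 4.3.3.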

Additional observations from a re-analysis of the deposited data

How the results depend on the processing

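With other scalings (TMM, DESeq2 size factors, totals without Rn45s) all 33 ratios between the highest and lowest library (9 genes and 2 sums) stayed within their counting intervals and kept their lowest library. Totals without Rn45s raised log2 CPM of every other gene by 0.10 to 0.12. Without replicate 1, mean CPM went from 11.4 to 6.10 for Eomes, from 1.38 to 0.725 for Tbx21, from 0.832 to 0.335 for Ms4a15 and from 5.86 to 3.67 for Shisa3, and without replicate 2 from 0.228 to 0.119 for Slc6a3. The count of genes varying between libraries was 36, against 1097 with a common dispersion, 12 with limma's variance test and 16 to 21 with 1 replicate left out. Of those, 26 with the common dispersion and 11 with limma were among the 36. Other olfactory bulb genes called numbered 1, against 3 with a common dispersion (Dlx1, Ebf3 and Gch1) and 0 to 1 with 1 replicate left out, the 0 being without replicate 1, where 2 had an unadjusted p under 0.05 in edgeR. With 1 replicate left out, the ratio over the summed mitral and tufted genes ranged from 1.21 to 3.20, and from 1.21 to 1.90 without Cdhr1, lowest without replicate 3. Neighbouring pairs that kept their TPM order in every library used numbered 3, and 3 to 8 with 1 replicate left out, 8 being without replicate 3. With 2 libraries fewer comparisons have to hold. No paired analysis was possible because the series has 1 group. Depth limits Tbx21, Ms4a15 and Slc6a3, with at most 34 counts in a library.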

Other observations

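Genes whose levels followed those of Cdhr1 and Barhl2 over the 3 libraries were sought among 10520 genes averaging at least 5 CPM, by Euclidean distance of log2(CPM + 0.5) values centred on the gene's own mean. With 3 libraries and this many genes, near profiles are a description only. Nearest to Cdhr1 was Filip1l, with 8.34, 7.92 and 1.11 CPM in replicates 1, 2 and 3 (distance 0.19 log2 units). It was followed by 2810032G03Rik (10.6, 10.2 and 1.98 CPM, distance 0.39) and Xist, the RNA that coats the inactive X chromosome (8.42, 12.4 and 1.98 CPM, distance 0.68). Cep76, a centrosomal protein gene, had 23.2, 22.6 and 6.56 CPM, and the immediate early gene Junb 12.6, 9.37 and 3.00 CPM. Among the chosen genes Doc2g lay at a distance of 0.11 from Cdhr1, nearer than any of these 5. Tbx21 lay at 0.37, Ms4a15 at 0.86, Spp1 at 0.91, Shisa3 at 0.98 and Eomes at 1.42. Th lay at 1.82, Slc6a3 at 1.83 and Barhl2 at 2.24. Tbx21, Ms4a15 and Slc6a3 averaged below 5 CPM. Since the genes were chosen partly on their difference between libraries, nothing is read from these distances. The 5 genes nearest to Barhl2 all lay within 0.02 of it. They were Slit1, an axon guidance ligand gene, at 28.9, 40.3 and 36.4 CPM, Adk, the adenosine kinase gene, at 18.8, 26.6 and 23.7 CPM, the transcription factor gene Gli3 at 6.99, 9.82 and 8.78 CPM, Pcgf2 at 25.2, 35.4 and 31.5 CPM, and the protocadherin gene Pcdh1 at 242, 332 and 305 CPM.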
